A study of Arabidopsis thaliana with 24 samples.

Results

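The data are the ABA response of light-grown pifq seedlings of Arabidopsis thaliana, that is 3 libraries of seedlings on abscisic acid (ABA) against 3 libraries of seedlings on ethanol as mock, 6 of the 24 libraries of the series. The members were chosen by the labels alone, as the columns of genotype pifq, light and either treatment, and all genes were considered. The accession is Columbia-0, and pifq is a quadruple mutant of PIF1, PIF3, PIF4 and PIF5 that both groups share. Light-grown seedlings stood in low fluorescent light (10 µmol m-2 s-1) with 16 h of light and 8 h of dark, were moved with their mesh to the treatment plates after 72 h and stayed there for 5 days at 22 °C, times that hold unless otherwise stated per the labels. The medium held 1% sucrose, and no dose of ABA is named in the labels. Wild-type (WT) seedlings grown and treated in the same way, 3 libraries per treatment, were the groups for the test of a genotype difference. Dark-grown pifq seedlings, moved after 62 h and treated for 4 days, were the groups for a test of a light difference. Polyadenylated RNA was taken from whole seedlings, so fewer cells of a type and less RNA per cell cannot be told apart in any value given here.

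ABA is the plant hormone of seed dormancy and of the response to drought. In its signalling pathway, PYR/PYL receptors that have bound ABA block clade A PP2C phosphatases, which releases SnRK2 kinases to activate bZIP transcription factors such as the ABFs and ABI5. These factors bind G-box-like elements with an ACGT core, called ABA-responsive elements, in front of the genes they control. The PIFs are basic helix-loop-helix factors that bind G-boxes as well, promote elongation, and are destabilised by phytochromes in light.

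Total counts of the 6 libraries lay between 13722850 and 15719143, where 1 count was worth at most 0.0858 CPM (counts relative to library size), and 20828 of 32833 genes had enough counts to be tested. Levels below are CPM after scaling by TMM, the trimmed mean of M-values, and a log2 change is ABA against mock with its standard error from edgeR's quasi-likelihood fit of all 24 libraries. A gene is said to have risen or fallen where the Benjamini-Hochberg adjusted p over all genes tested was under 0.05. The genes mutated in pifq were still read: PIF3 had 2.64, 1.75 and 0.873 CPM with mock and 12.8, 10.1 and 16.6 CPM with ABA, PIF1 had 58.9, 70.9 and 65.9 CPM with mock and 74.6, 98.4 and 89.4 CPM with ABA, PIF4 118, 105 and 111 CPM with mock and 187, 162 and 199.7 CPM with ABA and PIF5 33.4, 28.4 and 31.4 CPM with mock and 58.4, 53.1 and 57.1 CPM with ABA. The labels do not say where the mutations lie, so these levels do not check the label. Replicate 2 was at an extreme in 2 respects. Seed genes were higher in ABA replicate 2 than in the other ABA libraries, the summed level of the seed storage and oil body list being 1600.2, 5827 and 1031 CPM. In light-grown WT, ABA replicate 2 was likewise the highest, with 603, 3501 and 1354 CPM. In pifq, replicate 2 of both treatments had the lowest CCA1 and the highest PRR5, genes of the circadian clock. Mock replicate 3 lay at the other extreme for both genes. CCA1, a morning factor of the clock, had 40.7, 16.5 and 69.3 CPM with mock and 141, 51.7 and 137 CPM with ABA, and PRR5, a later repressor, had 79.2, 128 and 27.6 CPM with mock and 37.1, 129.6 and 22.2 CPM with ABA. Of 11 clock genes tested, 1 rose and 1 fell, beside 23.7% higher and 23% lower over all genes (0 rises without ABA replicate 1 or mock replicate 1 or mock replicate 2, 0 falls without ABA replicate 3 or mock replicate 1). Their median log2 change was -0.14. RVE8, an activator of the clock, was the member called higher (log2 change 1.55 ± 0.55, adjusted p = 0.0271) and PRR7 the member called lower (log2 change -0.61 ± 0.20, adjusted p = 0.0173). The part that these differences of replicate 2 have in other results was not tested. The call was lost for PRR7 (-0.50 without ABA replicate 3, -0.54 without mock replicate 1) and RVE8 (1.34 without ABA replicate 1, 1.33 without ABA replicate 3, 1.66 without mock replicate 1, 1.22 without mock replicate 2). With only the 6 compared libraries, RVE8 (1.53, adjusted p = 0.0752) did not pass the test. With no filter on low counts, RVE8 (1.53, adjusted p = 0.0537) did not pass the test.

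ABA changed close to 1 gene in 2. Of 20828 genes tested, 9736 were called, 46.7%, with 4937 higher (23.7%) and 4799 lower (23%), and 1706 rose (8.19%) and 1999 fell (9.6%) by at least 2-fold. The 3 ABA libraries did not overlap with the 3 mock libraries for 11145 genes (53.5%). The split was 3284 higher and 7285 lower on library totals alone, a scaling which moved the median log2 change of all genes by -0.17. All changes here are relative to the TMM scale, on which that median was -0.01. The lowest and highest counts of calls without any 1 of the 6 libraries were 4128 and 4701 higher and 4137 and 4535 lower. The 47 gene lists drawn from known pathways and tissues are set against these shares in the plot of called members by list. Lists and members were chosen with earlier results of these data known, so their shares are descriptions and not independent support. Counts of list members below are to be read beside 23.7% higher and 23% lower over all genes. Groups said not to overlap are to be read beside the 53.5% of all genes. For the 12 highest and 12 lowest genes named by rank, it was a condition of being named.

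**Figure D1:**
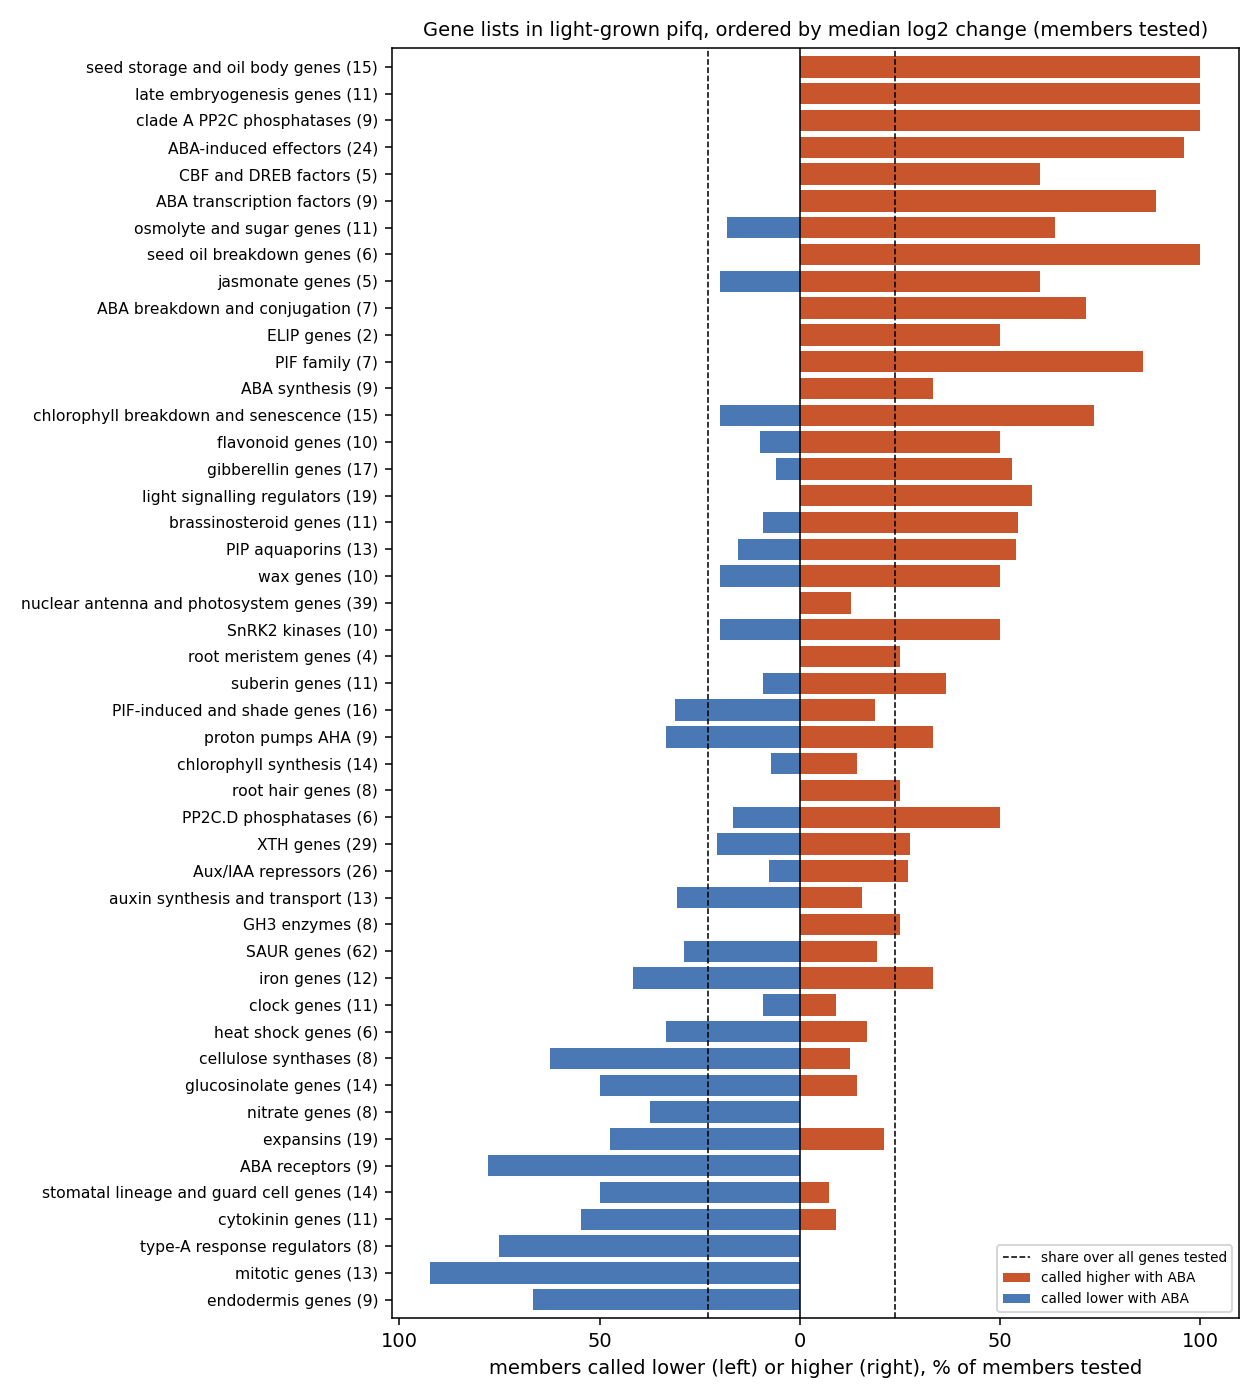
Share of the tested members of each gene list called higher (right, orange) or lower (left, blue) with ABA in light-grown pifq, in percent, with the number of members tested in parentheses and lists ordered by median log2 change. The dashed lines mark the shares over all genes tested, 23.7% higher and 23% lower. All tested members of the seed storage, late embryogenesis and clade A PP2C lists were called higher, for seed storage in part through the filter on counts. Endodermis, mitotic and type-A response regulator genes lie at the lower end. Lists and members were chosen with earlier results of these data known. On scaling by library totals alone the medians of the XTH, Aux/IAA, PP2C.D, GH3 and auxin lists change sign.

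The pathway that carries the ABA signal was itself altered, its receptors lower and its inhibitors higher. Of 9 receptor genes tested, 7 fell (median log2 change -0.88), beside 23% of all genes. PYL4 had 245, 283 and 336 CPM in the mock libraries and 25.3, 32.8 and 19.7 CPM in the ABA libraries (log2 change -3.47 ± 0.19, adjusted p = 1.11e-11). PYL5 had 77.9, 71.8 and 112 CPM in the mock libraries and 18.1, 26.7 and 27.5 CPM in the ABA libraries (log2 change -1.86 ± 0.19), and PYL8 had 121, 125 and 135 CPM in the mock libraries and 45.8, 53.8 and 48.3 CPM in the ABA libraries (log2 change -1.36 ± 0.10). For these 3 receptors every ABA library lay below every mock library, beside 53.5% of all genes without overlap in either direction. PYL6, among the 12 named genes that fell most, had 17.2, 22.1 and 20.4 CPM in the mock libraries and 0.45, 0.0796 and 0.0858 CPM in the ABA libraries (log2 change -6.50 ± 0.51, adjusted p = 1.97e-09). PYR1 (-0.83 ± 0.16), PYL1 (-0.88 ± 0.12) and PYL2 (-0.82 ± 0.25) also fell, whereas PYL7 (0.35, adjusted p = 0.22) and PYL9 (0.11, adjusted p = 0.596) did not pass the test. PYL3, PYL10, PYL11, PYL12 and PYL13 had too few counts to be tested. With 1 library left out, the test was not passed by PYL2 (-0.70 without ABA replicate 3).

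Each of the 9 clade A PP2C phosphatase genes, which encode the co-receptors that hold SnRK2 kinases inactive, rose with ABA (median log2 change 3.49), beside 23.7% of all genes. HAI3 had 0.251, 0.388 and 0.146 CPM in the mock libraries and 46.9, 47.2 and 42.6 CPM in the ABA libraries (log2 change 7.38 ± 0.30, adjusted p = 1.21e-13). HAI2 had 1.01, 0.194 and 0.146 CPM in the mock libraries and 67.3, 72.5 and 87.6 CPM in the ABA libraries (log2 change 7.33 ± 0.34, adjusted p = 2.96e-12), and HAI1 had 3.08, 1.94 and 1.67 CPM in the mock libraries and 79.8, 70.4 and 86.7 CPM in the ABA libraries (log2 change 5.13 ± 0.22, adjusted p = 3.98e-13). In each of the 3 the groups lay far apart. AHG3 rose from 30.2, 23 and 20.8 CPM to 267, 219.7 and 349 CPM (log2 change 3.49 ± 0.16), ABI2 by 2.98 ± 0.16, ABI1 by 2.28 ± 0.14, HAB1 by 1.82 ± 0.26 and HAB2 by 1.04 ± 0.11 on the log2 scale. AHG1, known from seeds, was 64.9-fold higher by counts (95% counting interval 17.5 to 542), with 36, 55 and 17 counts in the ABA libraries.

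Among the 10 SnRK2 kinase genes, 5 rose and 2 fell (median 0.29), or 50% and 20% beside 23.7% higher and 23% lower over all genes. SNRK2.6, the kinase of guard cells also called OST1, had 25.8, 22.1 and 24.5 CPM in the mock libraries and 65, 50.2 and 57.1 CPM in the ABA libraries (log2 change 1.25 ± 0.11, adjusted p = 7.71e-09). SNRK2.3, an ABA-activated kinase, rose by 0.62 ± 0.13, while its relative SNRK2.2 did not pass the test (0.16, adjusted p = 0.367). SNRK2.9 (1.11 ± 0.32), SNRK2.10 (0.57 ± 0.09) and SNRK2.1 (0.43 ± 0.07) rose as well. SNRK2.8 (-1.58 ± 0.18) and SNRK2.4 (-0.33 ± 0.09) fell, and SNRK2.5 (-0.35, adjusted p = 0.492) and SNRK2.7 (-0.04, adjusted p = 0.948) did not pass the test.

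Of 9 genes of ABA transcription factors, 8 rose (median 1.49). ABF2 (log2 change 1.43 ± 0.11, adjusted p = 2.04e-09), ABF3 (log2 change 1.49 ± 0.15, adjusted p = 4.14e-08) and ABF4 (log2 change 1.04 ± 0.09, adjusted p = 4.28e-09), the bZIP factors of vegetative tissue, had non-overlapping groups, beside 53.5% of all genes. ABF1 had 21.8, 34.3 and 10.5 CPM with mock and 39.6, 52.4 and 22.7 CPM with ABA, groups that overlap (log2 change 0.78 ± 0.41, adjusted p = 0.132). Factors known from seeds rose as well. ABI5, a bZIP factor that arrests seedlings after germination, had 2.26, 1.87 and 0.655 CPM in the mock libraries and 19.9, 40.3 and 10.3 CPM in the ABA libraries (log2 change 3.85 ± 0.48, adjusted p = 3.09e-06), and the B3 factor ABI3 had 1.01, 0.776 and 0.218 CPM in the mock libraries and 9.0, 17.9 and 4.12 CPM in the ABA libraries (log2 change 3.91 ± 0.59, adjusted p = 2.37e-05). The AP2 factor ABI4 was 49.2-fold higher by counts (95% counting interval 16.5 to 242, 24.1-fold without ABA replicate 2). EEL rose by 2.201 ± 0.49 and AREB3 by 0.39 ± 0.07. In ABI5, ABI3, ABI4 and EEL the highest library was ABA replicate 2, and without it the log2 changes were 3.20, 3.25, 4.41 and 1.24. Still called, the log2 change was EEL 1.24 without ABA replicate 2. The test was passed by ABF1 (1.23) without mock replicate 2.

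**Figure D2:**
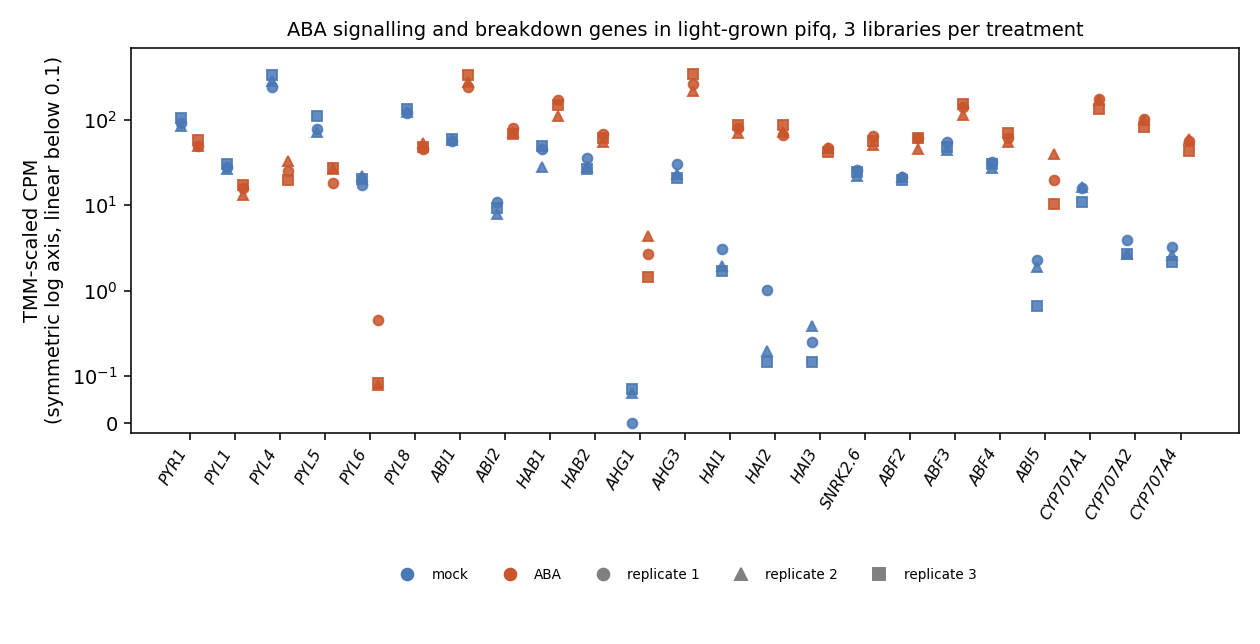
TMM-scaled CPM of ABA receptor, phosphatase, kinase, transcription factor and ABA-degrading enzyme genes in the 3 mock (blue) and 3 ABA (orange) libraries of light-grown pifq, on a symmetric log axis, with the marker shape giving the replicate. The receptors PYL4, PYL5, PYL6 and PYL8 lie lower in all 3 ABA libraries, and all 9 phosphatases lie higher. Groups did not overlap for 53.5% of all genes tested.

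Several genes that remove ABA rose, and fewer of those that make it. Of 7 genes of breakdown and conjugation, 5 rose (median 1.01), or 71.4% beside 23.7% of all genes. CYP707A2, an ABA 8'-hydroxylase that degrades the hormone, had 3.9, 2.65 and 2.69 CPM in the mock libraries and 103, 101 and 83.8 CPM in the ABA libraries (log2 change 4.95 ± 0.17, adjusted p = 9.87e-15). CYP707A4 had 3.21, 2.59 and 2.18 CPM in the mock libraries and 56.8, 59.5 and 43.4 CPM in the ABA libraries (log2 change 4.31 ± 0.19, adjusted p = 3.80e-13) and CYP707A1 had 15.9, 16.2 and 10.8 CPM in the mock libraries and 178, 171 and 136 CPM in the ABA libraries (log2 change 3.49 ± 0.19, adjusted p = 1.47e-11). In all 3 the groups lay far apart. CYP707A3 rose by 0.87 ± 0.22, and so did BGLU18 (1.01 ± 0.30), a glucosidase that frees ABA from its glucose ester. The glucosidase gene BGLU33 (0.20, adjusted p = 0.432) and the glucosyltransferase gene UGT71C5 (0.01, adjusted p = 0.957) did not pass the test. Leaving out 1 library ended the call of BGLU18 (0.63 without ABA replicate 3).

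Of 9 synthesis genes, 3 rose (median 0.83), or 33.3% beside 23.7% of all genes. NCED3, the drought-induced dioxygenase that commits carotenoids to ABA, had 9.18, 4.98 and 7.13 CPM in the mock libraries and 42.2, 53.9 and 84 CPM in the ABA libraries (log2 change 3.08 ± 0.36, adjusted p = 1.16e-06). The zeaxanthin epoxidase gene ABA1 had 374, 303 and 441 CPM in the mock libraries and 720.2, 561 and 709 CPM in the ABA libraries (log2 change 0.83 ± 0.15, adjusted p = 0.000139), and NCED9, a dioxygenase of seeds, rose by 2.66 ± 0.79. Other steps did not pass the test: ABA2 had a log2 change of 0.10 ± 0.16, AAO3 of 0.13 ± 0.12, ABA3 of 0.16 ± 0.13 and ABA4 of 0.13 ± 0.09. NCED2 (1.68 ± 0.78) and NCED5 (0.92 ± 0.57) stayed below 1 CPM in every library and did not pass the test either. The test was passed by NCED2 (3.41) without mock replicate 2. By DESeq2, NCED2 (1.72, adjusted p = 0.049) passed the test.

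The known protective targets of ABA rose nearly throughout. Of 24 ABA-induced effector genes, 23 rose (median 3.47). RD29B, a desiccation gene used as a reporter of ABA, had 17.602, 6.72 and 4.51 CPM in the mock libraries and 566, 639 and 559.9 CPM in the ABA libraries (log2 change 5.92 ± 0.44, adjusted p = 3.49e-09). The dehydrin gene RAB18 had 52.5, 12.6 and 12.6 CPM in the mock libraries and 1447, 1729.9 and 1443 CPM in the ABA libraries (log2 change 5.89 ± 0.54, adjusted p = 5.30e-08). The homeodomain gene ATHB7, which restrains growth in drought, had 15.9, 10.7 and 12.2 CPM in the mock libraries and 271, 223 and 276 CPM in the ABA libraries (log2 change 4.31 ± 0.17, adjusted p = 8.54e-14). In all 3 the groups were well apart, and mock replicate 1 was the highest of the mock libraries. The bZIP gene GBF3 (2.77 ± 0.13), the AFP genes AFP1 (3.13 ± 0.17) and AFP3 (3.01 ± 0.15), whose products bind ABI5, and the alcohol dehydrogenase gene ADH1 (3.87 ± 0.20) followed. COR47 (0.81 ± 0.15), ERD14 (1.09 ± 0.11) and RD22 (1.15 ± 0.19) rose least. COR15B did not pass the test (1.89, 3.36 and 0.509 CPM with mock and 3.67, 6.37 and 1.8 CPM with ABA, log2 change 1.02 ± 0.75, adjusted p = 0.281), in contrast to its close copy COR15A (4.91 ± 0.45). Reads of COR15A and COR15B, and of KIN1 (5.87 ± 0.56) and KIN2 (2.88 ± 0.35), may have been shared between the copies, as the labels name no counting program.

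The ACGTG core of the ABA-responsive element was searched, on either strand, in the 250 bases before the annotated start of each gene. The promoters of RD29B, RAB18, HAI2 and EM1 are shown as examples picked by hand, not by rank, among genes that rose strongly with ABA. The core is in capitals in either orientation (ACGTG or CACGT). All of them hold it, beside 56.6% of the promoters of genes at least 8-fold higher. The sequences are from RefSeq's TAIR10.1 genome, written 5′ to 3′ along the gene, so that the last base is next to the gene start.
RD29B, chr5:21236771-21237020, + strand: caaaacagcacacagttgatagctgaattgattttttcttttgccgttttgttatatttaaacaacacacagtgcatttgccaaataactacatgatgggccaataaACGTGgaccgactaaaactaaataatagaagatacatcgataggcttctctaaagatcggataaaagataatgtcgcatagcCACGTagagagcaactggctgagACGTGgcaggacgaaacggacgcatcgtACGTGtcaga
RAB18, chr5:26519448-26519697, - strand: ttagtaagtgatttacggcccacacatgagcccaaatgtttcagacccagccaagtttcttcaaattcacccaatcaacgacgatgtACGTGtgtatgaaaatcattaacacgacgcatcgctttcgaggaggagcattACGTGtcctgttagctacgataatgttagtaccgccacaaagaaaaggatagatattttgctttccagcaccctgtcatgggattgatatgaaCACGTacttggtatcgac
HAI2, chr1:2282829-2283078, - strand: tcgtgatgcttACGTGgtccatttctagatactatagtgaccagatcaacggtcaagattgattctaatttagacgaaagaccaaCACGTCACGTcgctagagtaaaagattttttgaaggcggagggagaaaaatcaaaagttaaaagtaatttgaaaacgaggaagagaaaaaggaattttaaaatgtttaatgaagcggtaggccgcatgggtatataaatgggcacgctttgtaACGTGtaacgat
EM1, chr3:19214472-19214721, + strand: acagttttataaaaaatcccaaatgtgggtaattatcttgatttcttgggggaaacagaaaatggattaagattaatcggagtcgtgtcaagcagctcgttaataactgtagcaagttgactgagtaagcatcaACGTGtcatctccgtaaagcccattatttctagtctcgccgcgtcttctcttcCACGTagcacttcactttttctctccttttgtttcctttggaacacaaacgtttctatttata
A match is a description of letters and not a bound site. Of 20695 promoters of tested genes, 24% held ACGTG. The share was 29.9% among the 4872 promoters of genes that rose, 21.7% among the 4799 of genes that fell and 22.4% among the 11024 others. Among the 401 promoters of genes that rose by at least 8-fold it was 56.6%, and among the 425 of genes that fell by at least 8-fold 29.2%. The longer element ACGTGTC, which contains the core, was in 4.38% of all promoters, in 22.2% of those at least 8-fold higher and in 0.706% of those at least 8-fold lower. The corresponding shares of ACGTGGC, which also contains it, were 3.94%, 18% and 2.12%. The G-box CACGTG, which contains the core in both orientations, was in 7.56%, 30.4% and 4.24%. The auxin-responsive element TGTCTC, searched for comparison, was in 10.6%, 13.5% and 12%. No test was made of these shares.

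Genes of the maturing seed were among those that changed most. All 11 late embryogenesis genes tested rose (median log2 change 6.37), as did all 15 of 17 storage and oil body genes that could be tested (median 8.17). Storage genes with almost no counts with mock, such as SESA1 (0, 0 and 1), passed the filter on counts only through other groups, where they were higher. That all tested members of this list rose was therefore in part set by the filter. EM1, a late embryogenesis protein, had 2.2002, 0.388 and 0.146 CPM in the mock libraries and 134, 298 and 104 CPM in the ABA libraries (log2 change 7.55 ± 0.76, adjusted p = 1.87e-07). LEA7 had 14.6, 2.198 and 1.38 CPM in the mock libraries and 599, 635 and 580.4 CPM in the ABA libraries (log2 change 6.61 ± 0.71, adjusted p = 4.58e-07), an even rise over the 3 ABA libraries. The peroxiredoxin gene PER1 had 4.21, 4.2 and 1.38 CPM in the mock libraries and 114, 223 and 121 CPM in the ABA libraries (log2 change 5.52 ± 0.60, adjusted p = 4.94e-07). SAG21 rose least of this list, by 0.66 ± 0.14.

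The cruciferin gene CRU1, of a seed storage globulin, had 4.21, 2.97 and 1.31 CPM in the mock libraries and 596, 2261 and 387 CPM in the ABA libraries (log2 change 8.55 ± 1.31, adjusted p = 3.39e-05). CRU3 had 1.89, 0.711 and 0.728 CPM in the mock libraries and 441, 1741 and 210.4 CPM in the ABA libraries (log2 change 9.46 ± 1.52, adjusted p = 5.50e-05). The oleosin gene OLEO1, which coats oil bodies, had 1.38, 0.453 and 0.0728 CPM in the mock libraries and 83.8, 256 and 68 CPM in the ABA libraries (log2 change 7.66 ± 0.78, adjusted p = 2.43e-07). In these genes all ABA libraries lay above all mock libraries, beside 53.5% of all genes without overlap in either direction. ABA replicate 2, however, was several times the other ABA libraries. Without ABA replicate 2 the log2 changes were 7.41 for CRU1, 8.16 for CRU3 and 6.82 for OLEO1, 14 of 15 members rose, and the median of the list was 6.67. The summed level of the list was 3.78 to 15.3 CPM over the mock libraries and 1031 to 5827 CPM over the ABA libraries. The albumin genes SESA1 and SESA2 had almost no counts with mock. SESA1 had 387, 1892 and 223 counts in the ABA libraries and was 3005-fold higher by counts (95% counting interval 539 to 118755, 1101-fold without ABA replicate 2). SESA2 had 303, 2269 and 280 counts with ABA and was 1713-fold higher by counts (95% counting interval 474 to 14151, 526-fold without ABA replicate 2). Most counts of both came from ABA replicate 2. CRU2, the third cruciferin, had 36, 621 and 17 counts with ABA and was 405-fold higher by counts (95% counting interval 112 to 3349, 47.8-fold without ABA replicate 2). The SESA genes are near copies of each other, so that the split of reads between them is uncertain. SESA3 had 0, 0.259 and 0 CPM with mock and 5.1, 85.5 and 4.63 CPM with ABA and SESA5 had 0.189, 0.194 and 0 CPM with mock and 76.5, 257 and 32.2 CPM with ABA. SESA4 was not tested. GASA3, a gibberellin-regulated peptide gene expressed in seeds, had 0.629, 0.0647 and 0 CPM with mock and 38.2, 79.7 and 29.4 CPM with ABA (log2 change 7.61 ± 0.68, adjusted p = 4.27e-08). Lost with 1 library left out were the calls of CRU2 (5.33 without ABA replicate 2). With only the 6 compared libraries, CRU2 (8.37, adjusted p = 0.0529) did not pass the test.

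**Figure D3:**
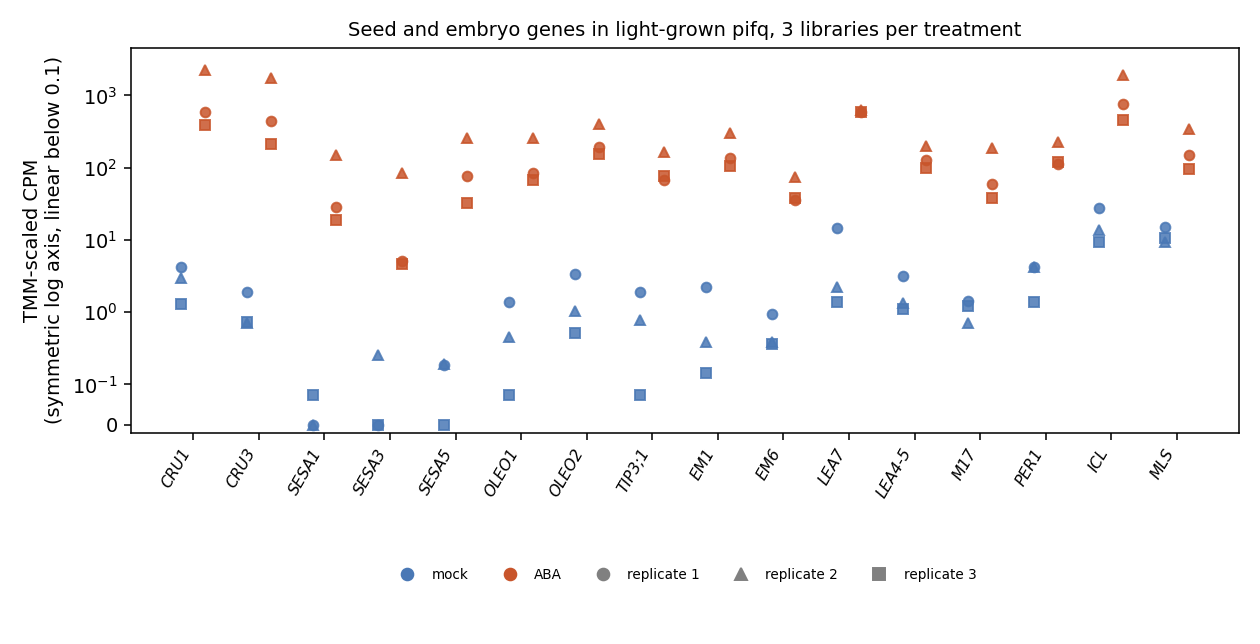
TMM-scaled CPM of storage protein, oil body, late embryogenesis and oil breakdown genes in the 3 mock (blue) and 3 ABA (orange) libraries of light-grown pifq, on a symmetric log axis, with the marker shape giving the replicate. Every ABA library lies above every mock library, and ABA replicate 2 (triangles) is the highest ABA library for each gene, with LEA7 nearly level (599, 635 and 580.4 CPM). Over all genes tested, groups did not overlap for 53.5%.

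All 6 genes of seed oil breakdown rose as well (median 1.23). ICL, isocitrate lyase of the glyoxylate cycle, had 28, 13.5 and 9.39 CPM in the mock libraries and 758, 1902 and 453 CPM in the ABA libraries (log2 change 5.93 ± 0.67, adjusted p = 8.86e-07), and MLS, malate synthase, had 15, 9.31 and 10.7 CPM in the mock libraries and 149, 348 and 96.7 CPM in the ABA libraries (log2 change 4.08 ± 0.51, adjusted p = 2.82e-06). Here too replicate 2 was the highest ABA library. KAT2 (1.00 ± 0.12), a thiolase of beta-oxidation, PCK1 (1.47 ± 0.19), which opens gluconeogenesis, SDP1 (0.39 ± 0.11), the oil body lipase, and PXA1 (0.37 ± 0.07), the peroxisomal importer, rose by less. Single libraries decided the call of SDP1 (0.29 without ABA replicate 3, 0.26 without mock replicate 2). On library totals alone, PXA1 (0.19) and SDP1 (0.22) did not pass the test.

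Of 11 osmolyte and sugar genes, 7 rose and 2 fell (median 1.40). P5CS1, the drought-induced enzyme of proline synthesis, had 125, 100.5 and 77.6 CPM in the mock libraries and 1381, 1179.6 and 1432 CPM in the ABA libraries (log2 change 3.72 ± 0.20, adjusted p = 4.32e-12). The galactinol synthase gene GOLS2 had 0.629, 0.129 and 0.146 CPM in the mock libraries and 20.9, 19.8 and 22 CPM in the ABA libraries (log2 change 6.04 ± 0.48, adjusted p = 6.02e-09). The sucrose synthase gene SUS3 rose by 3.66 ± 0.19. ERD5, a proline dehydrogenase, which degrades proline, fell from 352, 311 and 332 to 121, 127 and 126 CPM (log2 change -1.41 ± 0.15, adjusted p = 1.70e-07). Of 5 CBF and DREB factors of cold and drought, 3 rose: DREB2A (2.44 ± 0.37), CBF3 (3.05 ± 0.45) and CBF2 (1.03 ± 0.29). The call was lost for CBF2 (0.58 without ABA replicate 3).

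Genes of barrier lipids moved unevenly, beside 23.7% higher and 23% lower over all genes. Of 10 wax genes, 5 rose and 2 fell (2 rises without ABA replicate 1 or mock replicate 1 or mock replicate 2, 3 rises without ABA replicate 3, 3 rises on library totals alone, 1 fall without ABA replicate 2 or mock replicate 3). CER1, of alkane synthesis, had 37.3, 28.5 and 26.6 CPM in the mock libraries and 267, 240.0 and 305 CPM in the ABA libraries (log2 change 3.13 ± 0.20, adjusted p = 9.29e-11), whereas CER4, of the alcohol branch, fell to 0.225, 0.318 and 0.0858 CPM (log2 change -3.51 ± 0.62, adjusted p = 8.90e-05). Of 11 suberin genes, 4 rose and 1 fell (0 falls without ABA replicate 1 or ABA replicate 2 or ABA replicate 3 or mock replicate 1 or mock replicate 2, 2 falls without mock replicate 3), among them FAR1, a reductase that makes primary alcohols of suberin, with 8.05, 6.92 and 7.78 CPM in the mock libraries and 54.9, 52.1 and 55.2 CPM in the ABA libraries (log2 change 2.83 ± 0.29, adjusted p = 2.15e-07). KCS2 (2.01 ± 0.24), FAR4 (1.42 ± 0.28) and MYB41 (1.66 ± 0.39) were the others that rose. Of 10 flavonoid genes, 5 rose and 1 fell. The activator gene PAP1 was 76.1-fold higher by counts (95% counting interval 25.6 to 372), the chalcone synthase gene CHS rose by 1.29 ± 0.25 and DFR by 3.55 ± 0.81. Still called, the log2 change was PAP1 9.31 without mock replicate 1.

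Many genes of cytokinin action fell. Of 11 genes of cytokinin synthesis and breakdown, 1 rose and 6 fell (0 rises without ABA replicate 3; median -1.07), and of 8 type-A response regulators, which cytokinin induces and which dampen its signal, 6 fell (median -1.19), beside 23% of all genes. CYP735A2, which makes trans-zeatin, had 17.2, 14.3 and 11 CPM in the mock libraries and 0.30, 0.398 and 0.172 CPM in the ABA libraries (log2 change -5.56 ± 0.34, adjusted p = 3.86e-11). The isopentenyltransferase gene IPT5 had 6.6, 5.95 and 3.93 CPM in the mock libraries and 0.375, 0.0796 and 0.343 CPM in the ABA libraries (log2 change -4.33 ± 0.51, adjusted p = 7.38e-07). CKX4, encoding a cytokinin oxidase, was 172-fold lower by counts (95% counting interval 58.6 to 837), with 2, 1 and 0 counts in the ABA libraries. Both synthesis and breakdown enzymes were thus among the genes that fell. ARR5 had 15.8, 12.5 and 12.3 CPM in the mock libraries and 2.92, 2.79 and 2.83 CPM in the ABA libraries (log2 change -2.25 ± 0.18, adjusted p = 1.39e-09), ARR7 had 11.3, 13 and 12.7 CPM with mock and 4.72, 2.39 and 1.37 CPM with ABA (log2 change -2.10 ± 0.30, adjusted p = 8.43e-06) and ARR6 fell by 2.00 on the log2 scale. ARR9 did not pass the test (0.19, adjusted p = 0.26).

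The other genes with the strongest falls encode proteins of defence, lipid transfer and metabolism. CRK30, a cysteine-rich receptor-like kinase, was 2141-fold lower by counts (95% counting interval 384 to 84604), and PP2-A5, a phloem lectin, was 367-fold lower by counts (95% counting interval 101 to 3033). In the ABA libraries CRK30 had 0, 0 and 1 counts and PP2-A5 had 1, 1 and 0. EARLI1, a lipid-transfer protein, had 359, 705 and 359 CPM in the mock libraries and 5.02, 3.9 and 2.32 CPM in the ABA libraries (log2 change -6.97 ± 0.57, adjusted p = 1.18e-08). MLP328, of the major latex protein family, had 58.9, 52.6 and 46.8 CPM in the mock libraries and 0.675, 0.239 and 0.772 CPM in the ABA libraries (log2 change -6.54 ± 0.40, adjusted p = 1.28e-10). DR4, a gene repressed by drought, had 112, 74.9 and 49.5 CPM in the mock libraries and 1.05, 0.875 and 2.83 CPM in the ABA libraries (log2 change -5.66 ± 0.52, adjusted p = 6.46e-08). In each of these the ABA libraries lay far below the mock libraries. Groups that do not overlap were a condition for these genes to be named, and 53.5% of all genes met it. ACD6, an ankyrin protein of salicylate-linked defence, fell from 12.5, 48.3 and 44.4 to 0.60, 0.478 and 1.37 CPM (log2 change -5.43 ± 0.62, adjusted p = 1.61e-06). AIG1, a GTP-binding protein gene induced by bacteria, was 143-fold lower by counts (95% counting interval 48.8 to 698). MIOX4 (-6.41 ± 0.68), a myo-inositol oxygenase, and IMS2 (-5.70 ± 0.36), named as an isopropylmalate synthase, complete the 12.

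Cell division genes fell together. Of 13 mitotic genes, 12 fell (median -1.48). KNOLLE, the syntaxin of the cell plate, had 17.9, 12 and 9.17 CPM in the mock libraries and 3.97, 5.01 and 4.12 CPM in the ABA libraries (log2 change -1.58 ± 0.21, adjusted p = 2.08e-06), the Aurora kinase gene AUR1 had 10.7, 7.43 and 7.28 CPM in the mock libraries and 3.07, 3.02 and 2.83 CPM in the ABA libraries (log2 change -1.51 ± 0.21, adjusted p = 6.04e-06), and the cyclin gene CYCB1;2 had 17.3501, 12.5 and 10.5 CPM in the mock libraries and 3.82, 4.46 and 4.63 CPM in the ABA libraries (log2 change -1.65 ± 0.25, adjusted p = 1.60e-05). Every ABA library lay below every mock library for the 3 genes, beside 53.5% of all genes without overlap in either direction. CDKB1;1 was the member that did not pass the test (0.22, adjusted p = 0.49). The summed level of the list was 74.3 to 126 CPM with mock and 32.6 to 51.8 CPM with ABA.

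Among genes of cell expansion, the process behind hypocotyl elongation, some rose and some fell, in the largest list at shares near those of all genes. Of 62 SAUR genes tested, 12 rose and 18 fell, which is 19.4% and 29% beside 23.7% higher and 23% lower over all genes, with a median log2 change of -0.04. SAUR proteins promote acid growth by inhibiting PP2C.D phosphatases. SAUR32, known to be expressed in the apical hook, had 37.7, 29.5 and 35.3 CPM in the mock libraries and 109, 102 and 127 CPM in the ABA libraries (log2 change 1.72 ± 0.12, adjusted p = 2.02e-10). SAUR59 had 23.1, 22 and 26.1 CPM in the mock libraries and 63.3, 79.3 and 64.2 CPM in the ABA libraries (log2 change 1.54 ± 0.13, adjusted p = 3.65e-09) and SAUR30 had 5.85, 4.33 and 4.44 CPM with mock and 13.1, 11.5 and 12.3 CPM with ABA (log2 change 1.33 ± 0.13, adjusted p = 2.59e-08). In contrast, SAUR1 (log2 change -3.68 ± 0.49, adjusted p = 3.23e-06), SAUR3 (log2 change -3.09 ± 0.40, adjusted p = 1.77e-06) and SAUR76 (log2 change -3.06 ± 0.54, adjusted p = 8.30e-05) fell, each to below 0.5 CPM with ABA. Of the cluster SAUR19 to SAUR24, whose near-identical copies make the assignment of reads uncertain, SAUR21 fell (6.16, 5.56 and 4.8 CPM with mock and 2.62, 3.42 and 2.06 CPM with ABA, adjusted p = 0.00244) and no other was called. Of 6 PP2C.D phosphatases, 3 rose and 1 fell (2 falls without ABA replicate 3, 2 falls on library totals alone; median 0.14, -0.03 on library totals alone). Of 9 AHA proton pump genes, 3 rose and 3 fell, AHA11 most (0.95 ± 0.11), while AHA2, the pump of acid growth, fell (577, 642 and 510.4 CPM with mock and 389.5, 450.1 and 371 CPM with ABA, log2 change -0.52 ± 0.13, adjusted p = 0.00216) and AHA1 rose (0.29 ± 0.08). On library totals alone, AHA1 (0.12) did not pass the test. With only the 6 compared libraries, AHA1 (0.28, adjusted p = 0.0593) did not pass the test.

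Of 19 expansins, which loosen walls, 4 rose and 9 fell (2 rises without ABA replicate 2, 2 rises on library totals alone; median -0.66). ATEXPA1 had 188, 202 and 209 CPM in the mock libraries and 38.9, 41.2 and 38.9 CPM in the ABA libraries (log2 change -2.33 ± 0.16, adjusted p = 3.65e-10), ATEXPA14 had 9.49, 7.43 and 7.35 CPM with mock and 0.75, 0.398 and 0.772 CPM with ABA (log2 change -3.65 ± 0.30, adjusted p = 2.54e-09), and ATEXPA11 rose from 23.5, 23.8 and 19.2 to 86.6, 64.9 and 86.5 CPM (log2 change 1.84 ± 0.18, adjusted p = 8.75e-08). Of 29 XTH genes, of xyloglucan remodelling, 8 rose and 6 fell, shares of 27.6% and 20.7% near those of all genes (median 0.09, -0.07 on library totals alone), led by XTH25 with 4.27, 2.39 and 6.11 CPM with mock and 149, 149 and 144 CPM with ABA (log2 change 5.12 ± 0.35, adjusted p = 8.60e-10). XTH18 fell by 2.69 on the log2 scale. Of 8 cellulose synthases, 1 rose and 5 fell (median -0.39): the secondary wall subunits CESA4 (-1.20 ± 0.25), CESA7 (-1.28 ± 0.31) and CESA8 (-0.91 ± 0.26) fell, as did the primary wall subunits CESA5 (-0.47 ± 0.15) and CESA6 (-0.31 ± 0.08), and CESA1 rose (0.52 ± 0.08). Of 13 PIP aquaporins of the plasma membrane, 7 rose and 2 fell (4 rises without mock replicate 1 or mock replicate 2, 4 rises on library totals alone), PIP2;5 most (1.68 ± 0.20), and PIP2;4 fell (log2 change -2.73 ± 0.48, adjusted p = 0.00013). With 1 library left out, the test was not passed by CESA5 (-0.30 without ABA replicate 2, -0.41 without mock replicate 3).

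Among genes of the growth hormones, those of auxin were called at shares above and below those of all genes, 23.7% higher and 23% lower. Of 13 genes of auxin synthesis and transport, 2 rose and 4 fell, or 15.4% and 30.8% (1 rise without ABA replicate 3): TAA1, which starts auxin synthesis, had 14.9, 20.6 and 17.8 CPM in the mock libraries and 5.7, 6.92 and 4.97 CPM in the ABA libraries (log2 change -1.59 ± 0.18, adjusted p = 3.66e-07), YUC5 was 44.5-fold lower by counts (95% counting interval 12 to 373), and the efflux carriers PIN3 (0.64 ± 0.19) and PIN4 (0.61 ± 0.16) rose. Of 26 Aux/IAA repressors, 7 rose and 2 fell, or 26.9% and 7.69% (3 rises on library totals alone, 4 rises without mock replicate 2; median 0.07, -0.10 on library totals alone). IAA14 rose (log2 change 1.51 ± 0.21, adjusted p = 4.54e-06) and IAA19, a repressor of hypocotyl growth, fell (3.83, 3.49 and 4.58 CPM with mock and 0.75, 0.398 and 0.943 CPM with ABA, log2 change -2.50 ± 0.46, adjusted p = 0.000184). Of 8 GH3 enzymes, which conjugate auxin, 2 rose (median 0.03, -0.15 on library totals alone). Of 17 gibberellin genes, 9 rose and 1 fell (0 falls without ABA replicate 1 or ABA replicate 3 or mock replicate 2; median 0.61), including the receptor genes GID1A (0.87 ± 0.13), GID1B (0.61 ± 0.11) and GID1C (1.06 ± 0.14), the DELLA repressor RGL3 (6.22, 4.78 and 4.07 CPM with mock and 17.8, 28.7 and 24.9 CPM with ABA, log2 change 2.23 ± 0.18, adjusted p = 3.22e-09) and the biosynthetic gene GA3OX1 (log2 change 2.14 ± 0.31, adjusted p = 1.33e-05). Of 11 brassinosteroid genes, 6 rose and 1 fell (median 0.42). Their changes were small, from 0.34 ± 0.08 in DET2 to 0.73 ± 0.25 in BR6OX2 among those that rose, and BR6OX1 fell (-2.85 ± 0.48). Leaving out 1 library ended the call of BR6OX2 (0.42 without ABA replicate 1, 0.64 without mock replicate 1, 0.65 without mock replicate 2) and PIN3 (0.45 without ABA replicate 3). Still called, the log2 change was PIN4 0.40 without ABA replicate 3. On library totals alone, BR6OX2 (0.57) and DET2 (0.17) did not pass the test.

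PIF genes and light regulators that were called rose. Of 7 PIF genes, 6 rose (median 0.85). UNE10, the gene of PIF8, which is intact in pifq, had 17.9, 14.5 and 21.9 CPM in the mock libraries and 52.2, 42.1 and 63.1 CPM in the ABA libraries (log2 change 1.54 ± 0.24, adjusted p = 2.94e-05), whereas PIF7, also intact, did not pass the test (45.1, 46.5 and 55.9 CPM with mock and 48.9, 29.9 and 46.1 CPM with ABA, adjusted p = 0.376). PIF6 was 10.2-fold higher by counts (95% counting interval 2.42 to 91.1). Transcript of the mutated genes rose too, PIF3 by 2.87 ± 0.35, PIF5 by 0.85 ± 0.17, PIF4 by 0.72 ± 0.12 and PIF1 by 0.42 ± 0.10 on the log2 scale, and whether it is functional was not tested. Of 16 PIF-induced and shade genes, 3 rose and 5 fell (3 falls without ABA replicate 2; median 0.21). ST2A, a sulfotransferase, had 5.53, 5.88 and 3.64 CPM in the mock libraries and 19.4, 27.8 and 21.5 CPM in the ABA libraries (log2 change 2.18 ± 0.30, adjusted p = 6.88e-06), and the homeodomain gene HAT1 had 28.5, 23.4 and 28.7 CPM with mock and 11.2, 11.5 and 13.2 CPM with ABA (log2 change -1.17 ± 0.15, adjusted p = 1.42e-06). Of 19 light signalling regulators, 11 rose (7 rises without ABA replicate 3 or mock replicate 2, 7 rises on library totals alone; median 0.44), among them the GATA factor GNL (11.8, 6.27 and 13.3 CPM with mock and 47.3, 49.5 and 57.2 CPM with ABA, log2 change 2.296 ± 0.38, adjusted p = 6.63e-05), the chloroplast factor GLK2 (0.75 ± 0.22), and the photoreceptor genes PHYA (0.54 ± 0.10), CRY1 (0.56 ± 0.09) and CRY2 (0.43 ± 0.09). HY5, a central activator of light responses, did not pass the test (0.50 ± 0.22, adjusted p = 0.0624). Lost with 1 library left out were the calls of GLK2 (0.63 without mock replicate 2). The test was passed by HY5 (0.64) without mock replicate 1. With only the 6 compared libraries, HY5 (0.49, adjusted p = 0.042) passed the test.

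Few genes of the photosynthetic apparatus were called, 12.8% of the nuclear antenna and photosystem genes higher beside 23.7% of all genes. Of 39 nuclear antenna and photosystem genes, 5 rose (2 rises without ABA replicate 2 or ABA replicate 3 or mock replicate 1 or mock replicate 2, 2 rises on library totals alone, 11 rises without mock replicate 3, 1 fall on library totals alone; median 0.33). Their summed level was 63356 to 79521 CPM with mock and 80974 to 90531 CPM with ABA, and reads of the near-identical LHCB1, LHCB2 and RBCS copies may be split unevenly. LHCB7, a rare antenna protein, had 15.9, 12.7 and 18.8 CPM in the mock libraries and 34, 26.7 and 33.3 CPM in the ABA libraries (log2 change 0.99 ± 0.19, adjusted p = 0.000165). Of 14 genes of chlorophyll synthesis, 2 rose and 1 fell (0 rises without ABA replicate 3, 1 rise without mock replicate 2, 1 rise on library totals alone, 6 rises without mock replicate 3, 3 falls on library totals alone). PORA, the oxidoreductase of etiolated seedlings, was the one that fell (6.22, 5.95 and 5.75 CPM with mock and 1.72, 2.15 and 1.89 CPM with ABA, log2 change -1.64 ± 0.52, adjusted p = 0.0148). Of 2 early light-induced genes, ELIP1 rose (log2 change 2.03 ± 0.60, adjusted p = 0.00903) and ELIP2 did not pass the test (-0.22, adjusted p = 0.869).

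Genes of chlorophyll breakdown and senescence rose. Of 15, 11 rose and 3 fell (median 0.82). SAG29, a sugar transporter of senescing leaves, had 4.02, 0.97 and 0.728 CPM in the mock libraries and 179, 169 and 222 CPM in the ABA libraries (log2 change 6.60 ± 0.38, adjusted p = 1.06e-10). SGR1, the magnesium-dechelating protein STAY-GREEN, had 12.6, 11.1 and 10.5 CPM in the mock libraries and 30.6, 26.3 and 25.9 CPM in the ABA libraries (log2 change 1.27 ± 0.10, adjusted p = 1.97e-09), and PAO, which opens the chlorophyll ring, had 72.3, 76.6 and 86.7 CPM with mock and 176, 152 and 182 CPM with ABA (log2 change 1.11 ± 0.11, adjusted p = 2.61e-08). Each had groups that do not overlap, beside 53.5% of all genes. The NAC factors NAP (3.56 ± 0.51) and ORE1 (1.65 ± 0.22) rose, whereas WRKY53 (-2.37 ± 0.45), SAG13 (-2.13 ± 0.50) and DIN10 (-0.66 ± 0.20) fell. Single libraries decided the call of DIN10 (-0.53 without ABA replicate 1).

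Markers of single tissues were called unevenly, beside 23.7% of all genes higher and 23% lower. The endodermis list was lower in 6 of 9 members (median -2.06): CASP1, a scaffold of the Casparian strip, had 22.9, 24.2 and 19.2 CPM in the mock libraries and 4.65, 3.82 and 4.8 CPM in the ABA libraries (log2 change -2.32 ± 0.36, adjusted p = 3.51e-05), and CASP2 (-2.47 ± 0.40), CASP4 (-2.40 ± 0.45), CASP5 (-1.44 ± 0.41) and PER64 (-2.06 ± 0.36) were among the others that fell, while SCR, which specifies the layer, did not pass the test (0.13, adjusted p = 0.184). Of 8 root hair genes, 2 rose, or 25%, near the share of all genes. Their summed level was 29.5 to 46.2 CPM with mock and 44.3 to 54.1 CPM with ABA. Of 4 root meristem genes, 1 rose, also 25% (0 rises without ABA replicate 2 or mock replicate 2 or mock replicate 3, 0 rises on library totals alone). Of 14 genes of the stomatal lineage and guard cells, 1 rose and 7 fell (0 rises without mock replicate 2, 2 rises without ABA replicate 1 or mock replicate 1; median -0.91). SPCH, which starts the lineage, had 12.2, 11.1 and 10.8 CPM in the mock libraries and 5.55, 4.85 and 5.06 CPM in the ABA libraries (log2 change -1.14 ± 0.19, adjusted p = 4.60e-05), the guard cell factor MYB60 had 30.6, 31 and 26.9 CPM with mock and 14.2, 9.39 and 8.83 CPM with ABA (log2 change -1.44 ± 0.21, adjusted p = 7.49e-06) and EPF2, a peptide that limits stomata, fell by 2.01 on the log2 scale, whereas EPFL9, a peptide that promotes them, rose (log2 change 0.87 ± 0.27, adjusted p = 0.0113). The part of altered tissue shares in the other results was not tested. The call was lost for EPFL9 (0.75 without mock replicate 2).

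Of 12 iron genes, 4 rose and 5 fell, beside 23.7% higher and 23% lower over all genes (1 rise without mock replicate 2 or mock replicate 3, 2 rises without ABA replicate 3 or mock replicate 1). IRT1, the root iron transporter, had 21.4, 28.7 and 19.4 CPM in the mock libraries and 0.15, 0.398 and 1.2 CPM in the ABA libraries (log2 change -5.35 ± 0.62, adjusted p = 1.17e-06), and its activator FRU, also called FIT, had 9.93, 11.7 and 5.97 CPM with mock and 0.675, 0.796 and 0.772 CPM with ABA (log2 change -3.62 ± 0.52, adjusted p = 1.24e-05). BHLH101, an iron deficiency factor, had 2.95, 0.905 and 0.582 CPM with mock and 2.85, 6.53 and 23.8 CPM with ABA, groups that overlap (log2 change 2.86 ± 0.71, adjusted p = 0.00272), and F6'H1, of coumarin synthesis, fell by 2.99 on the log2 scale. Of 8 nitrate genes, 3 fell: the nitrite reductase gene NIR1 (311, 322 and 393 CPM with mock and 206, 209 and 183 CPM with ABA, adjusted p = 5.15e-05), the root xylem loader NRT1.5 (-1.61 ± 0.27) and the nitrate reductase gene NIA1 (-0.75 ± 0.26). Of 14 glucosinolate genes, 2 rose and 7 fell (0 rises on library totals alone, 1 rise without ABA replicate 1 or ABA replicate 3 or mock replicate 2 or mock replicate 3). The falls were in the methionine-derived branch, with MAM1, of chain elongation, at 118, 96.5 and 73.3 CPM with mock and 2.7, 6.76 and 6.78 CPM with ABA (log2 change -4.16 ± 0.27, adjusted p = 3.65e-10) and CYP83A1 (-4.04 ± 0.26), and in SUR1 (-0.74 ± 0.10), and the rises were in the tryptophan-derived branch, CYP79B3 (0.74 ± 0.24) and MYB34 (0.50 ± 0.16). Of 5 jasmonate genes, 3 rose and 1 fell: VSP1 (2.36 ± 0.45), VSP2 (1.94 ± 0.41) and AOS (1.09 ± 0.18) rose and the lipoxygenase LOX2 fell (54.4, 90.7 and 59.8 CPM with mock and 10.0, 15 and 18.9 CPM with ABA, adjusted p = 3.45e-06). Of 6 heat shock genes, 1 rose and 2 fell (1 fall without ABA replicate 1 or ABA replicate 2 or ABA replicate 3 or mock replicate 2 or mock replicate 3), the small heat shock protein gene ATHSP22.0 being 105-fold higher by counts (95% counting interval 35.5 to 512). With 1 library left out, the test was not passed by CYP79B3 (0.50 without ABA replicate 3, 0.63 without mock replicate 2), MYB34 (0.36 without ABA replicate 1, 0.45 without mock replicate 2, 0.41 without mock replicate 3) and NIA1 (-0.74 without ABA replicate 1, -0.66 without ABA replicate 3, -0.62 without mock replicate 3). Still called, the log2 change was BHLH101 1.62 without ABA replicate 3. On library totals alone, CYP79B3 (0.57) and MYB34 (0.33) did not pass the test. With only the 6 compared libraries, BHLH101 (2.84, adjusted p = 0.0831) did not pass the test.

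The design allowed the ABA response of light-grown pifq to be set against that of light-grown WT, with no library in common. In WT, 8327 genes were called, 40% (21% higher and 19% lower), of which 6639 were also called in pifq with the same sign. That is 68.2% of the pifq calls and 79.7% of the WT calls, and 10 genes were called in both with opposite signs. The difference itself, the change in pifq minus the change in WT, was called for 45 genes, 0.216% of those tested, 18 with a positive (0.0864%) and 27 with a negative difference (0.13%), and for 2101 genes at an unadjusted p under 0.05. A difference of at least 2-fold was called positive for 11 genes (0.0528%) and negative for 12 (0.0576%). The count changed with each of the 12 libraries left out, for a cause that was not tested. It was 4 without pifq mock replicate 2, 11 without pifq mock replicate 3 or pifq ABA replicate 3, 6 without WT mock replicate 3, and 14 without WT ABA replicate 1 or WT ABA replicate 3. It was 15 without WT mock replicate 2, 20 without WT ABA replicate 2, 21 without pifq ABA replicate 2, 26 without WT mock replicate 1, 27 without pifq ABA replicate 1 and 74 without pifq mock replicate 1. DESeq2 called 141 genes, 43 of the 45 among them.

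A call that was not made does not show an equal response. The standard error of the difference had a median of 0.21 on the log2 scale, and its 95% interval lay within 1 of 0 for 14502 genes, 69.6%. Among the 3705 genes called and at least 2-fold in pifq, that held for 1078, or 29.1%. Of 47 lists, 44 held no member called in the difference by edgeR's quasi-likelihood test. Over all 608 list members tested, 4 were called, beside 45 of all 20828 genes. An unadjusted p under 0.05 was found for 76 members, beside 2101 of all genes. DESeq2 called 14 of 663 members, beside 141 genes in all. The differences of core genes, none of them called, were -0.33 ± 0.25 for PYL4, -0.42 ± 0.14 for PYL8, 0.19 ± 0.19 for ABI1, 0.43 ± 0.21 for AHG3, -0.11 ± 0.20 for ABF3, 0.05 ± 0.25 for CYP707A2 and 0.21 ± 0.22 for ATHB7. For the SAUR list the median change was -0.04 in pifq and -0.86 in WT. In WT 10 rose and 30 fell, or 16.1% and 48.4% beside 21% higher and 19% lower over all genes. In the difference edgeR's quasi-likelihood test called 0 SAUR genes, with 10 of 62 at an unadjusted p under 0.05, beside 2101 of 20828 genes. DESeq2 called 1 of 75.

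**Figure D4:**
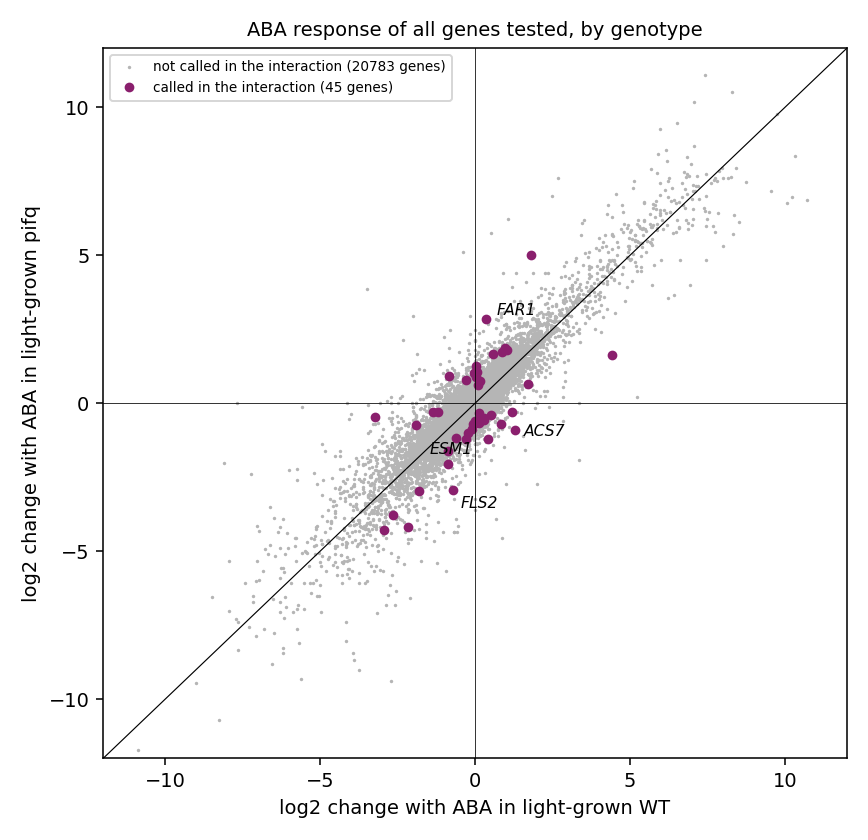
Log2 change with ABA in light-grown WT (x axis) and in light-grown pifq (y axis) for all 20828 genes tested, each point a gene, with the diagonal of equal change. The 45 genes whose difference was called are in purple and lie off the diagonal, with FLS2, ACS7, ESM1 and FAR1 labelled.

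Among the 45 genes, 19 were called in pifq and not in WT, 4 in WT and not in pifq, and 6 in both with opposite signs. The other 16 were called in both with the same sign, the change being larger in pifq for 13 and smaller for 3. ACS7, AILP1, DPL1 and FLS2 were called without any 1 of the 12 libraries, although FLS2 was not called with only the 12 compared libraries in the fit (adjusted p = 0.0645). ACS7, an ACC synthase of ethylene production, fell in pifq, from 14.3, 19.1 and 15.6 to 8.62, 10.3 and 7.12 CPM, and rose in WT, from 3.96, 4.56 and 3.43 to 8.79, 10.4 and 9.74 CPM (difference -2.18 ± 0.27, adjusted p = 0.00104). The mock libraries of pifq were above those of WT, and the ABA libraries of the genotypes overlapped. FLS2, the receptor kinase for bacterial flagellin, had 35, 46 and 53.9 CPM with mock and 5.1, 6.69 and 5.75 CPM with ABA in pifq and 80.4, 48.9 and 48.1 CPM with mock and 29.2, 41.1 and 37.7 CPM with ABA in WT (difference -2.23 ± 0.29, adjusted p = 0.00226). The ABA libraries of pifq were the low group. AILP1, an aluminium-induced protein, had 235, 235 and 198 CPM with mock and 397, 476 and 485 CPM with ABA in pifq and 379, 418 and 409 CPM with mock and 387, 413 and 380.5 CPM with ABA in WT (difference 1.05 ± 0.16, adjusted p = 0.00673). DPL1, a lyase of sphingolipid breakdown, had 35.6, 37.6 and 36.7 CPM with mock and 25.5, 25.4 and 22.6 CPM with ABA in pifq and 28.3, 27.1 and 25.1 CPM with mock and 32.3, 34.2 and 30.8 CPM with ABA in WT (difference -0.85 ± 0.12, adjusted p = 0.00279). AILP1 rose in pifq while its log2 change in WT was -0.03 and did not pass the test, and DPL1 fell in pifq and rose in WT (0.27).

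FAR1 showed the largest positive difference of the 16 genes named by rank (2.47 ± 0.38, adjusted p = 0.0146, called in 11 of 12 fits that leave out 1 library, and not called with only the 12 compared libraries, adjusted p = 0.0654). In WT it had 87.9, 40.4 and 45.3 CPM with mock and 82.1, 57.4 and 84.1 CPM with ABA, so that the low group was mock in pifq (8.05, 6.92 and 7.78 CPM). ESM1, a modifier of glucosinolate hydrolysis, fell in pifq (274, 374 and 372 CPM with mock and 130.0, 144 and 170.2 CPM with ABA) and did not pass the test in WT (339.8, 391 and 294 CPM with mock and 401, 506 and 459 CPM with ABA; difference -1.61 ± 0.26, adjusted p = 0.0146, called in 10 of 12). IOS1, a receptor kinase of immunity, fell in both genotypes, from 79.9, 91.9 and 96.9 to 4.72, 5.09 and 3.95 CPM in pifq and from 48, 42.7 and 43.2 to 4.74, 5.47 and 7.3 CPM in WT (difference -1.34 ± 0.23, adjusted p = 0.0197, called in 7 of 12). The other named genes with a positive difference were SR1 (1.08 ± 0.20, 4 of 12), a protein kinase, PAR2 (1.18 ± 0.24, 1 of 12), a repressor in shade avoidance, DOT1 (0.90 ± 0.19, 1 of 12), a glycine-rich protein, NCED4 (0.85 ± 0.17, 2 of 12), a carotenoid cleavage enzyme, HAT3 (0.84 ± 0.17, 1 of 12), a homeodomain factor, and SOT18 (0.59 ± 0.11, 5 of 12), a sulfotransferase of glucosinolate synthesis. Those with a negative difference were G6PD3 (-1.18 ± 0.25, 2 of 12), a plastid dehydrogenase, SAG21 (-1.04 ± 0.19, 4 of 12) and IP5PII (-0.92 ± 0.18, 3 of 12), an inositol phosphatase. SR1 and NCED4 rose in both genotypes, and HAT3 and SOT18 were called higher in pifq alone. PAR2 fell in both (-0.74 in pifq, -1.92 in WT), and DOT1 was called lower in WT alone (-1.19). G6PD3 fell in both, SAG21 rose in both (0.66 in pifq, 1.70 in WT), and IP5PII fell in pifq and rose in WT. FUS3, a B3 factor of embryo maturation chosen after its values were seen, had a mean of 0.108 ± 0.129 CPM (SD, n = 3) with mock and 3.84 ± 0.502 CPM with ABA in pifq, beside 1.05 ± 0.387 and 3.7 ± 0.488 CPM in WT (difference 3.22 ± 0.62, adjusted p = 0.0314, called in 2 of 12). With only the 12 compared libraries in the fit, PAR2, DOT1, NCED4, HAT3, SOT18, G6PD3, SAG21, IP5PII and FUS3 were not called either, with adjusted p from 0.0653 in SAG21 to 0.0896 in FUS3.

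**Figure D5:**
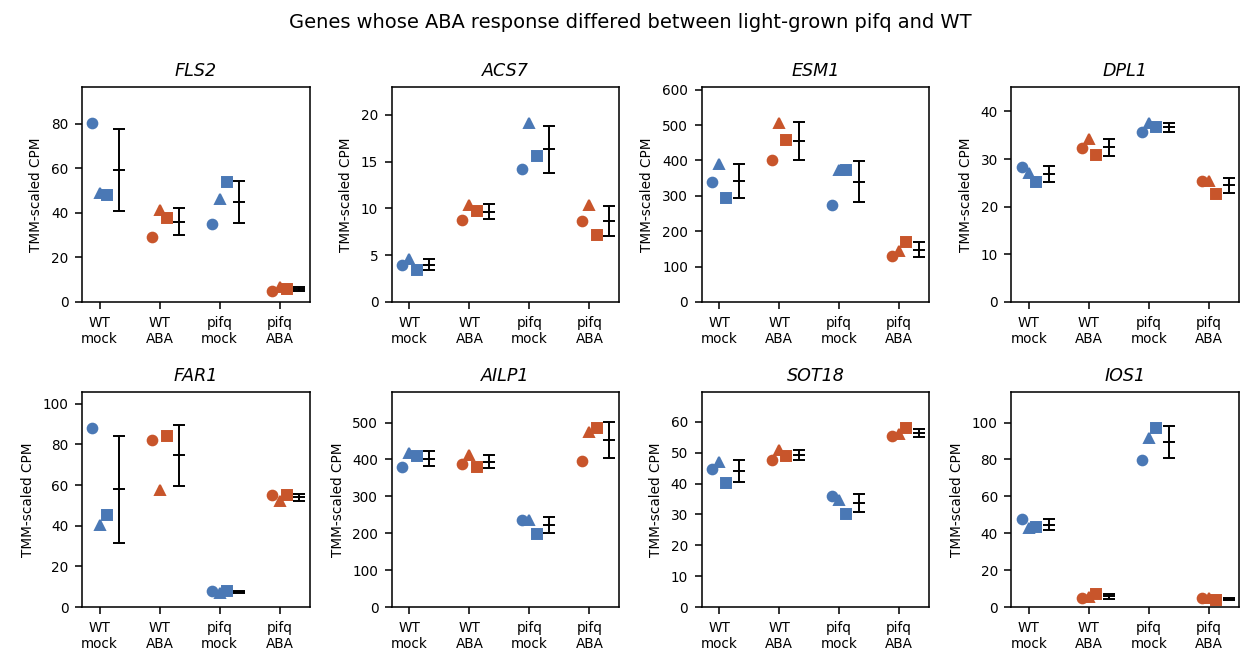
TMM-scaled CPM, on axes from 0, of 8 genes whose ABA response differed between light-grown pifq and WT, with 3 libraries per group as markers (blue mock, orange ABA, shape by replicate) and the mean ± SD beside them. FLS2 and ESM1 are lowest in pifq with ABA, FAR1 and AILP1 are lowest in pifq with mock, and ACS7 is highest in pifq with mock.

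The change with ABA in light minus that in darkness, within pifq, was called for 3888 genes (18.7%), 1879 with a positive (9.02%) and 2009 with a negative difference (9.65%), and at least 2-fold for 780 (3.74%) and 559 (2.68%). Light, age at transfer and days of treatment differ together between these groups and cannot be told apart. NCED3, of ABA synthesis, rose in light and had 13.6, 13.3 and 24 CPM with mock and 12.4, 15.3 and 14.5 CPM with ABA in darkness (difference 3.34 ± 0.49). ICL rose in both, from 609, 419 and 619 to 1737, 2668 and 4221 CPM in darkness, where the mock level was already high (difference 3.54 ± 0.79). ACS7 fell in light and had 4.2, 5.07 and 4.47 CPM with mock and 27.8, 25.8 and 43.7 CPM with ABA in darkness (difference -3.73 ± 0.26). FRK1, a kinase induced by flagellin, fell in light (log2 change -2.18 ± 0.27) and had 0.807, 0.701 and 1.3 CPM with mock and 3.99, 4.53 and 4.23 CPM with ABA in darkness (difference -4.37 ± 0.42).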

How the data were processed

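The authors deposited raw read counts per gene as 1 table of 24 columns, each matched to its sample by the column name in the labels. Per the labels' protocols, polyadenylated RNA was made into stranded libraries and read as paired ends of 100 bases. Per the submitters' processing notes, FastQC, STAR, SAMtools and DESeq2 were used with the genome TAIR10, while neither the program that counted reads nor its use of strand and annotation is stated in them. The design text of the series names 3 biological replicates, and the labels do not say whether the 3 libraries of a group came from separate cultures. P-values measure the spread between these libraries.

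Counts were fitted in R 4.3.3 with edgeR 4.0.16: filterByExpr by group, TMM, robust quasi-likelihood, 1 coefficient per group and 16 residual degrees of freedom. P-values were adjusted by Benjamini-Hochberg over 20828 genes, and the median biological coefficient of variation was 0.109. A standard error is the log2 change divided by the square root of F. A gene with no count in a group is given at least a fold from 3 counts over that group, and with 1 to 3 counts a ratio with its exact interval; intervals cover counting error only. No list's median changed when genes without counts in a group were set to that bound. Names and promoters came from RefSeq's TAIR10.1 (32548 IDs matched, the 285 others organelle genes that stayed in the fit), whose coordinates were not compared with the build of the counts, which hold none. Totals of the 6 libraries reached 15719143 counts.

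The text names the 12 highest and 12 lowest of the response and the 8 highest and 8 lowest of each difference (adjusted p under 0.05, a symbol, at least 5 CPM, for the response groups that do not overlap), the 4 members of lowest p per list, and all members of lists of up to 20. For longer lists the text prints counts, the median and part of the members. Members and lists were chosen with earlier results of these data known. The enzyme genes PSAT1 and PSAT2, matched by name, were removed from the photosystem list. The fitting code was checked on simulated counts in which 200 genes were changed. The alternatives were RLE size factors, library totals alone, no filter, a mean of at least 5 CPM, DESeq2 1.42.0, only the compared libraries, a replicate block, each library left out, a 2-fold rule and no organelle genes.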

Additional observations from a re-analysis of the deposited data

Results flagged for a closer look

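The change with ABA differed between light-grown pifq and WT, by the test of the difference itself, in the following named genes, with differences on the log2 scale as pifq minus WT. Positive differences were found for FUS3 (3.22 ± 0.62), FAR1 (2.47 ± 0.38), PAR2 (1.18 ± 0.24), SR1 (1.08 ± 0.20), AILP1 (1.05 ± 0.16), DOT1 (0.90 ± 0.19), NCED4 (0.85 ± 0.17), HAT3 (0.84 ± 0.17) and SOT18 (0.59 ± 0.11). Negative differences were found for FLS2 (-2.23 ± 0.29), ACS7 (-2.18 ± 0.27), ESM1 (-1.61 ± 0.26), IOS1 (-1.34 ± 0.23), G6PD3 (-1.18 ± 0.25), SAG21 (-1.04 ± 0.19), IP5PII (-0.92 ± 0.18) and DPL1 (-0.85 ± 0.12). Only ACS7, AILP1, DPL1 and FLS2 were called in all 12 fits that leave out 1 library, the others in 1 to 11. With only the 12 compared libraries, FUS3, FAR1, PAR2, DOT1, NCED4, HAT3, SOT18, FLS2, G6PD3, SAG21 and IP5PII were not called. FUS3 was near the floor in the pifq mock libraries (0.251, 0 and 0.0728 CPM).

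The change with ABA also differed between light and darkness within pifq, given as light minus darkness. Positive differences were found for PA2 (4.54 ± 0.40), JRG21 (3.61 ± 0.37), ICL (3.54 ± 0.79), PYD4 (3.42 ± 0.62), NCED3 (3.34 ± 0.49), THAS1 (3.33 ± 0.47), SKOR (3.16 ± 0.37) and AMT1;2 (3.09 ± 0.57). Negative differences were found for PP2-A5 (-4.85 ± 1.14), UP6 (-4.56 ± 0.69), FRK1 (-4.37 ± 0.42), UMAMIT14 (-3.99 ± 0.44), ACS7 (-3.73 ± 0.26), IOS1 (-3.55 ± 0.22), CYP706A6 (-3.38 ± 1.14) and PXMT1 (-2.96 ± 0.83). CYP706A6 was not called without any 1 of 8 libraries (-3.44 without dark ABA replicate 1, -3.28 without dark ABA replicate 2, -3.41 without dark ABA replicate 3, -2.85 without dark mock replicate 1, -2.85 without dark mock replicate 2, -3.30 without light ABA replicate 1, -3.37 without light ABA replicate 3, -3.21 without light mock replicate 2) nor with no filter on low counts (-3.42, adjusted p = 0.0525), and its difference was -5.89, still called, without dark mock replicate 3. PXMT1 was not called without light ABA replicate 3 (-2.75) or light mock replicate 2 (-2.63), nor PP2-A5 without dark ABA replicate 2 (-4.22).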

How the results depend on the processing

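The ABA response kept both directions under each alternative run, but its counts moved. Scaling by library totals alone gave 3284 genes higher and 7285 lower, and the rule of at least 2-fold gave 1706 higher and 1999 lower. Without 1 of the 6 libraries the counts ran from 4128 to 4701 higher and from 4137 to 4535 lower. The genotype difference was less stable: with a positive difference DESeq2 called 70, the 2-fold rule 11, library totals alone 11 and the fit of only the 12 compared libraries 4, and with a negative difference DESeq2 called 71, the 2-fold rule 12 and the compared libraries 7. Without 1 library these counts ran from 1 to 33 and from 3 to 41. The light difference had 780 positive and 559 negative calls of at least 2-fold, and 1029 negative calls with only the compared libraries. Without 1 library it ran from 1432 to 1850 and from 1382 to 2020. Apart from the 2-fold rule and the fits with fewer samples, the cause was not tested.

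With a replicate block nested in genotype and light, the response had 10219 calls, the genotype difference 36, of which 20 are among the 45, and the light difference 4647. Deviations of same-numbered ABA and mock libraries of light-grown pifq correlated at 0.0017, 0.166 and 0.261, not over 0.1 in each, so the numbers were not taken to pair them. ABA replicate 1 did not correlate best with its own number. With this block ABF1 (0.84, adjusted p = 0.00529), CCA1 (1.46, adjusted p = 0.0145), HY5 (0.51, adjusted p = 0.0272) and NCED2 (1.77, adjusted p = 0.0495) were also called, and NIA1 was not (-0.75, adjusted p = 0.059). Of the named genotype differences it did not call FUS3, PAR2, DOT1, NCED4, HAT3, SOT18, G6PD3, SAG21 and IP5PII (adjusted p from 0.0542 in SAG21 to 0.0722 in FUS3), and of the named light differences not CYP706A6 (-3.36, adjusted p = 0.093). Same-numbered pifq and WT libraries in light correlated at 0.393, 0.513 and 0.338 with ABA and at -0.157, 0.304 and -0.149 with mock, so that each ABA library, but not each mock library, correlated best with its own number. A block shared by the genotypes within treatment, chosen after seeing the data, gave 63 genes with a positive and 62 with a negative genotype difference, 40 of the 45 among them, and of the named genes it did not call FUS3 (3.18, adjusted p = 0.0556). The cause was not tested for either block. With 3 libraries per group, the median standard error was 0.15 for a response and 0.21 for a genotype difference on the log2 scale, which limits which differences could be detected.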
